A study of Homo sapiens with 7 samples.

Results

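The histone gene and MHC segment of chromosome arm 6p was taken as every CUT&Tag peak on chromosome 6 that starts between 25.5 and 34 Mb of the human build hg19. It held 483 of the 47959 peaks of the 6 deposited lists, in 8.5 Mb of sequence, and the rest of chromosome 6 held 1309. Position alone chose the members, so the width or fold of a peak did not decide its membership. The spans were, however, chosen with earlier results of these data known. The segment was divided into histone gene spans (26 to 26.35 Mb and 27.7 to 27.9 Mb), the MHC (28.5 to 33.4 Mb) and the rest. The MHC was divided further at approximate textbook positions into extended class I (28.5 to 29.6 Mb), class I (29.6 to 31.5 Mb), class III (31.5 to 32.2 Mb) and class II with its extension (32.2 to 33.4 Mb).

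The lists came from HCT116 cells, an established line from a human colon cancer, profiled by CUT&Tag, in which an antibody brings a transposase to chromatin so that DNA near the bound protein is cut and tagged. Histone H1 was profiled in 2 libraries of NuMA-depleted cells, titled AID, and in 2 libraries of wild-type cells, titled NC. The labels gave no treatment or time behind the depletion and did not say how complete it was or whether the cells were 1 clone. NuMA itself was profiled in wild-type cells only, in 1 library per antibody, the antibodies being directed at its C-terminal and N-terminal ends, and a library made with immunoglobulin G was not analysed here. Nothing in the labels said that the H1 replicates came from separate cultures, so p-values between groups measured the spread between these libraries only, which may be technical.

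NuMA is a large coiled-coil protein of the nucleus that gathers at the spindle poles in mitosis, and histone H1, the linker histone, closes the nucleosome and binds the DNA that joins it to the next. The segment joins gene groups of different kinds. The large histone gene cluster encodes core and linker histones that are made mainly in S phase, from short genes without introns. The MHC encodes the class I molecules that present peptides on nearly all nucleated cells and the class II molecules that present them mainly on cells of the immune system, and class III between them is a crowded stretch of complement, cytokine and many unrelated genes. In RefSeq's GRCh38.p14 annotation, chromosome 6 had 55 histone genes, of which 6 encode H1, 12 H2A, 15 H2B, 10 H3 and 12 H4. From HLA-F to MICB, the usual ends of class I, that annotation had 49 protein-coding genes. It had 59 from MCCD1 to NOTCH4 in class III and 36 from TSBP1 to KIFC1 in class II with its extension. The annotation is of another build than the peaks, so none of the peaks was assigned to a gene.

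The upstream sequences of the 6 linker histone genes are shown because the segment holds the genes for the same histone family that the H1 antibody targeted. They are the last 80 bases before each gene's start in RefSeq (GRCh38.p14, chromosome 6, H1-4 on the plus strand and the others on the minus strand), printed 5′ to 3′ along the gene. Capitals mark CCAAT, its reverse complement ATTGG, and TATANA, where N is any base.
H1-1: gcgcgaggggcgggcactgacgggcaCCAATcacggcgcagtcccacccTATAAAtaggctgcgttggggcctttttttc
H1-2: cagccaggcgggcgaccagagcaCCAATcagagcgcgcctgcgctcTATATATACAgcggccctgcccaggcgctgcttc
H1-3: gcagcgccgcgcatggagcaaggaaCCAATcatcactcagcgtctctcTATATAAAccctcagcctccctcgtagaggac
H1-4: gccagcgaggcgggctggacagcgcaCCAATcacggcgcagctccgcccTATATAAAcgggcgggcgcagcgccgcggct
H1-5: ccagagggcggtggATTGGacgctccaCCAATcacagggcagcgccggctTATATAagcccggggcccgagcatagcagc
H1-6: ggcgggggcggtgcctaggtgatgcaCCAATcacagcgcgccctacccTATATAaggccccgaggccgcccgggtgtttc
All 6 sequences held CCAAT and then TATANA before the start. Searched on both strands of the 250 bases upstream, CCAAT was present for 47 of the 54 chromosome 6 histone genes with a promoter in the table (87.0%), against 32.0% of all 35116 promoters. TATANA was present for 46 of the 54 (85.2%), against 17.7% of all. Such a match is a description of letters and says nothing about binding.

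NuMA peaks were dense in the segment. The C-terminal list had 204 peaks there, 24.0 per Mb, against 1.56 per Mb over the rest of chromosome 6, a ratio of 15.4. The N-terminal list had 213 peaks, 25.1 per Mb, against 2.55 per Mb, a ratio of 9.82. The segment thus held 44.6% of the chromosome's C-terminal peaks (95% Wilson interval 40.1% to 49.2%) and 33.9% of its N-terminal peaks (30.3% to 37.7%). These intervals cover counting error only, and with 1 library per antibody there was no replicate check. The short arm outside the segment was itself above the chromosome's average, with 3.25 and 4.99 peaks per Mb in the C-terminal and N-terminal lists, and the ratios to it were 7.38 and 5.02. The rest of chromosome 6 was poorer in NuMA peaks than all chromosomes outside the segment, which had 4.55 and 6.25 per Mb. The segment's ratios to the latter were 5.28 and 4.01. The number of genes, 59 in class III in the annotation above, was not tested as a source of these densities.

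The density was uneven within the segment, and class III stood highest. In the C-terminal list class III held 67 peaks in 0.7 Mb, 95.7 per Mb or 61.5 times the density of the rest of the chromosome. In the N-terminal list it held 61 peaks, 87.1 per Mb or 34.1 times. C-terminal peaks covered 9.08% of the class III span, against 0.114% of the rest of chromosome 6, and N-terminal peaks covered 9.05%, against 0.220%. The histone gene spans came next, with 40.0 C-terminal and 32.7 N-terminal peaks per Mb. Class I had 23.2 and 24.7 per Mb, and class II with its extension had 21.7 and 32.5, in the same order of lists. Extended class I was the poorest division of the MHC, with 4 C-terminal and 7 N-terminal peaks in 1.1 Mb. Outside the named gene groups the segment had 13.4 peaks per Mb in both lists. The last 0.6 Mb, from 33.4 Mb on, had 31.7 C-terminal and 25 N-terminal peaks per Mb, whereas the first 0.5 Mb held no C-terminal and 1 N-terminal peak.

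**Figure D1:**
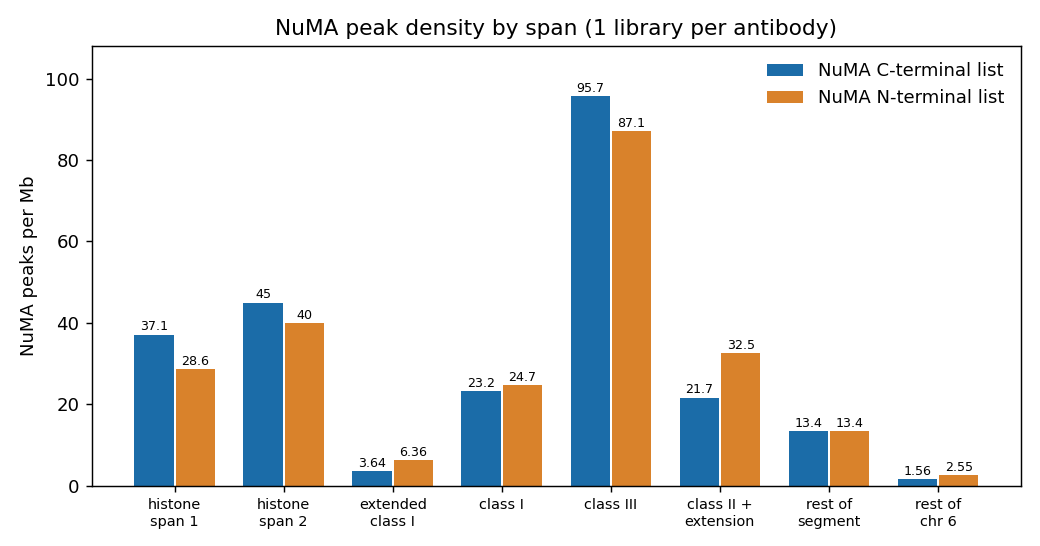
NuMA peaks per Mb (vertical axis) in 7 divisions of the segment and over the rest of chromosome 6, with the C-terminal list in blue and the N-terminal list in orange. Class III is highest at 95.7 and 87.1 per Mb, extended class I is lowest of these 7 at 3.64 and 6.36, and the rest of the chromosome is at 1.56 and 2.55.

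Counted in fixed windows of 1 Mb, the same stretch led the chromosome. Of the 172 windows of chromosome 6, 8 lie wholly in the segment, and 6 of these were among the 10 windows with most NuMA peaks. The window from 31 to 32 Mb ranked first with 64 C-terminal and 61 N-terminal peaks, and the window from 33 to 34 Mb ranked second with 42 and 48. The highest window outside the segment, from 43 to 44 Mb on the same arm, had 71 peaks in both lists together and had rank 3. The median was 39 NuMA peaks, both lists together, in the 8 windows, against 1 in the 163 windows outside, of which 64 had none. For H1, summed over its 4 lists, the medians were 7.5 and 3 peaks per window, and the highest H1 window of the chromosome, with 25 peaks, lay outside the segment.

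**Figure D2:**
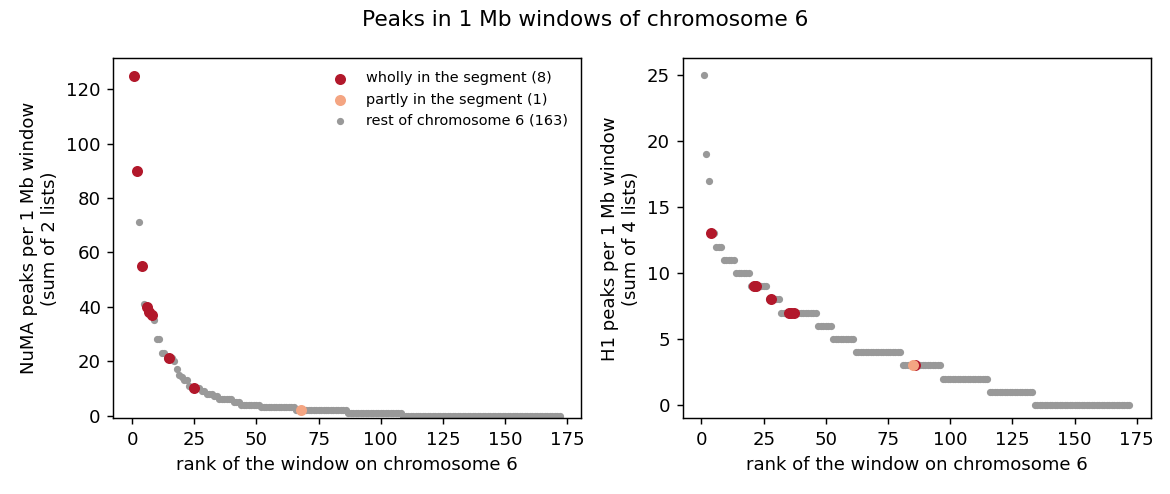
Peaks in each 1 Mb window of chromosome 6 (vertical axes: NuMA peaks summed over 2 lists on the left, H1 peaks summed over 4 lists on the right) against the rank of the window, with windows in the segment in red. The NuMA panel has segment windows at ranks 1, 2, 4, 6, 7 and 8, whereas the highest H1 window of the segment, with 13 peaks, is below windows outside that reach 25.

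Stretches without NuMA peaks lay beside these dense ones. Neighbouring NuMA regions, merged over both lists, were a median of 6.96 kb apart in the segment, against 42.9 kb in the rest of chromosome 6. The median gap was 4.33 kb in class III, 4.67 kb in class II with its extension and 12.6 kb in class I. The longest stretch of the segment without a peak of either antibody ran from 28945527 to 29600069, 654.5 kb from extended class I to the edge of class I. The next ran from 32170305 to 32805570, 635.3 kb from the end of class III into class II. These stretches were picked for their length. As background from RefSeq's gene order (GRCh38.p14), with no gap assigned to genes, 14 of the 17 protein-coding genes between TRIM27 and GABBR1 in extended class I are olfactory receptor genes. Between NOTCH4 and TAP2, at the border of class III and class II, 8 of 10 are HLA genes. The 635.3 kb stretch held 3 H1 regions, and the 654.5 kb stretch held none.

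NuMA peaks of the segment had a higher fold than those of the rest of the chromosome. The fold is the authors' ratio of signal to local background at a peak's summit, a value of that peak in its own list. Its median for C-terminal peaks was 7.45 in the segment and 6.02 in the rest of chromosome 6, and for N-terminal peaks it was 6.41 and 4.62. Fragments at the summit, recovered from the fold and the p-value, did not differ in the same way: the medians were 23 in the segment and 21.5 in the rest for C-terminal peaks, and 52 and 62 for N-terminal peaks. The recovered local background was lower in the segment, with medians of 1.73 against 2.47 fragments (C-terminal) and 6.65 against 12.4 fragments (N-terminal). Of the chromosome's 20 peaks of highest fold, 17 lay in the segment for the C-terminal antibody and 12 for the N-terminal antibody. The highest of each also lay there, at 32145998 to 32146844 in class III (C-terminal fold 19.7) and at 30594282 to 30595141 in class I (N-terminal fold 26.1).

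Widths differed less. The median C-terminal peak was 723 bp wide in the segment and 615 bp in the rest of chromosome 6, and the median N-terminal peak was 730 and 713 bp. Class II with its extension had the widest C-terminal peaks, with a median of 1242 bp over 26 peaks. Its N-terminal peaks were not the widest, with a median of 786 bp, against 809 bp in class III. Peaks of at least 2 kb made up 4.90% of the segment's C-terminal peaks (10), against 1.98% in the rest (5), and 4.23% of its N-terminal peaks (9), against 3.61% (15). The widest C-terminal peak of the chromosome, 2959 bp, lay at 33265953 to 33268911 in class II with its extension, with a fold of 5.50. The widest N-terminal peak of the segment, 2989 bp, lay at 31867525 to 31870513 in class III, with a fold of 8.53, and 1 peak in the rest of the chromosome was wider.

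The antibodies to the ends of NuMA shared about as large a part of the C-terminal list in the segment as elsewhere on chromosome 6, and a larger part of the N-terminal list. Of the 204 C-terminal peaks, 135 (66.2%, 95% Wilson interval 59.4% to 72.3%) overlapped an N-terminal peak by at least 1 bp, against 155 of 253 (61.3%) in the rest of the chromosome and 73.0% over all chromosomes. Of the 213 N-terminal peaks, 137 (64.3%, 57.7% to 70.4%) overlapped a C-terminal peak, against 152 of 415 (36.6%) in the rest and 51.4% over all chromosomes. The segment's C-terminal share was therefore below the share of all chromosomes, and its N-terminal share above it. The N-terminal library had 1.66 times the recovered depth of the C-terminal one, and the part of depth in these shares was not tested. No peaks of the immunoglobulin library could be set beside either list.

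Merged over both lists, the segment held 279 NuMA regions, 134 with both antibodies (48.0%), 69 with the C-terminal antibody alone and 76 with the N-terminal antibody alone. The rest of chromosome 6 held 512, of which 151 (29.5%) had both, 98 the C-terminal alone and 263 the N-terminal alone. Merged regions were not counted over all chromosomes, so the segment's 48.0% has no such share beside it. By peak, all chromosomes had 10398 C-terminal peaks with a partner and 3842 without, and 9488 N-terminal peaks without. In class II with its extension all 26 C-terminal peaks overlapped an N-terminal peak. In class III 46 of 67 C-terminal and 46 of 61 N-terminal peaks overlapped the other list, and in the histone spans 12 of 22 and 12 of 18. Summits of shared peaks were a median of 30 bp apart in the segment and 62 bp in the rest of the chromosome, and 83.7% and 81.9% were within 200 bp. Shared C-terminal peaks of the segment were wider than those called with that antibody alone, with a median of 815 against 605 bp, and their median fold was lower, 6.63 against 8.16. Shared N-terminal peaks were wider (892 against 582.5 bp) and had a higher median fold (7.33 against 5.02). The log2 folds of the antibodies had a Pearson correlation of 0.75 over the 134 shared regions of the segment and of 0.68 over the 151 of the rest. Regions are not replicates, so these correlations describe the lists and have no test.

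**Figure D3:**
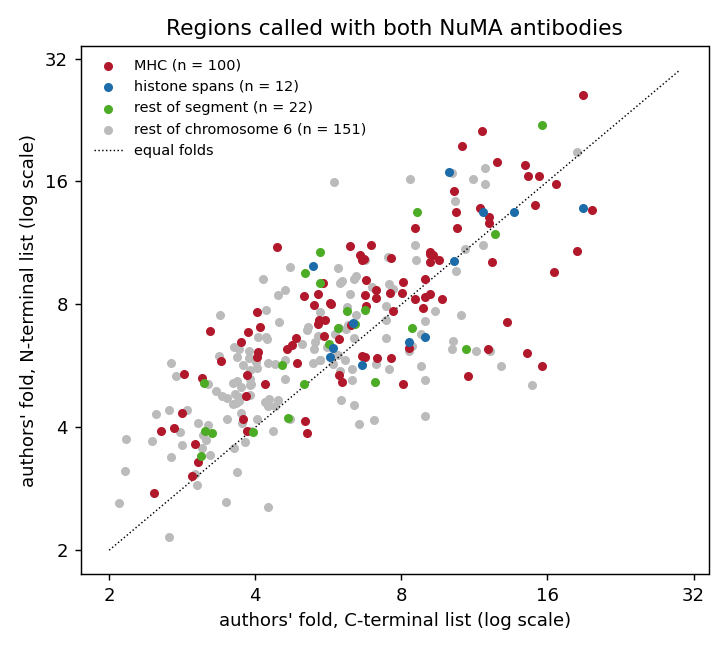
Authors' fold in the C-terminal list (horizontal axis, log scale) and in the N-terminal list (vertical axis, log scale) for each region called with both antibodies, by division of the segment and for the rest of chromosome 6. Segment regions run from the lower left to 18.9 and 26.1 at the upper right, and their median folds, 6.67 and 7.67, lie above those of the rest of the chromosome, 4.61 and 5.76.

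In the histone gene spans the lists formed 29 regions, 12 with both NuMA antibodies, 10 with the C-terminal antibody alone, 6 with the N-terminal antibody alone and 1 with H1 only. In the span from 26 to 26.35 Mb the region of highest C-terminal fold lay at 26123478 to 26124945, where the C-terminal fold was 18.96 on 27 fragments and the N-terminal fold 13.8 on 24 fragments. The region at 26171767 to 26172671 had folds of 10.1 and 16.9, and the region at 26210116 to 26210734 had 10.3 and 10.2. The other regions of that span with both antibodies had lower folds. They were 26216653 to 26217582 (8.96 and 6.66), 26020608 to 26021267 (5.77 and 6.26) and 26199035 to 26200317 (5.71 and 5.96). The highest peaks of the C-terminal antibody alone lay at 26214399 to 26215185 (14.2 on 20 fragments) and 26322367 to 26322971 (9.48 on 13 fragments).

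In the span from 27.7 to 27.9 Mb, 6 regions had both antibodies. Those at 27805506 to 27807197 (folds 13.7 and 13.4) and 27858028 to 27859000 (11.8 and 13.4) were highest in the C-terminal list. The region at 27724849 to 27725847 had 5.26 and 9.91, and 27781937 to 27783589 had 8.31 and 6.46. The regions at 27774943 to 27776328 (6.37 and 7.19) and 27860348 to 27861785 (6.63 and 5.67) completed them, and 27740127 to 27740762 was called with the C-terminal antibody alone (11.5 on 16 fragments). Regions of the histone spans with both antibodies were 619 to 1692 bp wide. Their median C-terminal fold was 8.64 and their median N-terminal fold 8.55, and the C-terminal fold was the higher one in 6 of 12, against 26 of 100 in the MHC.

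Regions with both antibodies were ranked by the lower of their 2 folds. A region could thus rank lower by that fold alone, such as the class III region at 32145998 with folds of 19.7 and 13.6. In the MHC the highest region by this measure was 30594282 to 30595141 in class I, where the C-terminal fold was 18.9 and the N-terminal fold 26.1. It was followed by 31730483 to 31731412 in class III (16.6 and 15.8), 31117875 to 31119141 in class I (15.4 and 16.5), and 33398821 to 33400263 (14.6 and 16.5) and 33372448 to 33373233 (14.4 and 17.6) in the class II extension. All 3 of the highest peaks of the C-terminal antibody alone lay in class III, at 32097467 to 32098341 (18.3), 32150194 to 32150979 (15.6) and 31703908 to 31704586 (15.4). They rested on 26, 22 and 22 fragments at their summits, against a median of 23 for C-terminal peaks of the segment, so their folds do not mark high counts. The highest peaks of the N-terminal antibody alone were spread over the classes, at 33361286 to 33361916 (10.5), 30851831 to 30852907 (10.1) and 31607127 to 31607691 (9.74). Folds of the 2 lists rest on different depths and backgrounds, so their sizes are not compared here. The peak at 30851831 rested on 100 fragments at its summit and the one at 31607127 on 18.

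By the same measure, the highest region of the rest of the segment lay at 28219278 to 28219988, with folds of 15.6 and 22. The next were 27100505 to 27101879 (12.5 and 11.9), 27598440 to 27599265 (8.61 and 13.5), 27440456 to 27441193 (8.42 and 7.0) and 27342422 to 27343158 (6.72 and 7.73). The region at 27342422 was also called in NuMA-depleted replicate 1 and in both wild-type H1 lists, and the region at 27440456 in both wild-type H1 lists. The highest C-terminal peaks with no partner lay at 27113839 to 27115248 (11.5), 33535351 to 33535954 (10.8) and 33636435 to 33637141 (9.46), on 19, 15 and 15 fragments. The highest N-terminal peaks with no partner lay at 26595959 to 26596486 (12.1), 33419393 to 33419910 (9.27) and 33546384 to 33546945 (8.31).

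H1 peaks were few in the segment. There were 14 and 4 in the NuMA-depleted lists and 20 and 28 in the wild-type lists, or 1.65 and 0.47 against 2.35 and 3.29 per Mb. The means were 1.06 ± 0.83 per Mb in NuMA-depleted and 2.82 ± 0.67 in wild-type libraries (SD, n = 2 each), a log2 ratio of −1.42. Both NuMA-depleted libraries were below both wild-type ones, with an exact permutation p of 0.333, the smallest that 2 against 2 libraries can give. The rest of chromosome 6 moved alike, with 0.78 and 0.40 against 1.25 and 1.51 peaks per Mb and a log2 ratio of −1.23. The NuMA-depleted libraries had 58.6% of the recovered depth of the wild-type ones, so depth and depletion cannot be told apart. When only the 1480 strongest peaks of every list were kept, the segment held 5 and 4 peaks in NuMA-depleted libraries and 2 and 5 in wild-type ones, and the log2 ratio turned to 0.36 (exact permutation p = 1).

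As a share of chromosome 6, the segment held 9.93% and 5.8% of the H1 peaks in NuMA-depleted libraries and 8.97% and 10.2% in wild-type ones. The difference of −1.73 percentage points was within the spread between libraries (exact permutation p = 0.667), and it turned to 0.34 without NuMA-depleted replicate 2, which had only 4 peaks in the segment. In all 4 libraries H1 density was higher in the segment than in the rest of the chromosome, by a ratio of 1.18 to 2.18. The mean log2 ratio was 0.84 ± 0.41 (SD, n = 4), with an exact sign-flip permutation p of 0.125, the smallest that 4 libraries allow. This did not hold in every library at equal list length, where wild-type replicate 1 had 0.24 peaks per Mb in the segment against 0.37 in the rest and the mean log2 ratio was 0.20 (exact sign-flip permutation p = 0.5). Set against all chromosomes the mean log2 ratio was 0.63 (exact sign-flip permutation p = 0.25), and NuMA-depleted replicate 2 had 0.471 peaks per Mb in the segment against 0.478 outside it. Against the rest of chromosome 6 the H1 ratios were thus far below the NuMA ratios of 15.4 and 9.82. Set against all chromosomes, the NuMA ratios were smaller, at 5.28 and 4.01. The antibodies differ, and the difference between the H1 and NuMA ratios was not tested.

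**Figure D4:**
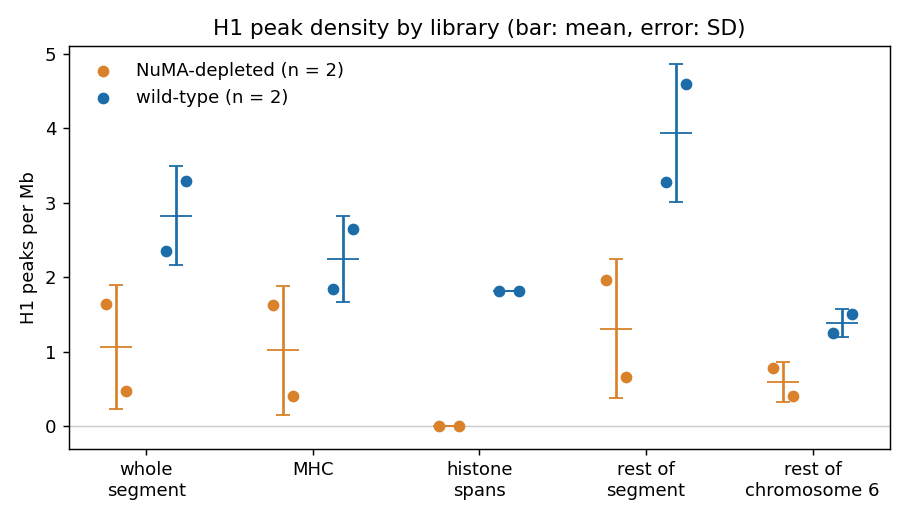
H1 peaks per Mb (vertical axis) in the whole segment, the MHC, the histone spans, the rest of the segment and the rest of chromosome 6, with NuMA-depleted libraries in orange to the left of wild-type libraries in blue. Points are libraries, the horizontal bar is the mean and the error bar the SD of 2 libraries, and each NuMA-depleted point lies below both wild-type points in these 5 columns.

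By division, the MHC had 8 and 2 H1 peaks in NuMA-depleted libraries and 9 and 13 in wild-type ones. Within the MHC the groups overlapped in class I, with 4 and 0 H1 peaks in NuMA-depleted libraries and 3 and 7 in wild-type ones, and in class III, with 2 and 0 against 1 and 1. The rest of the segment had 6 and 2 against 10 and 14. The histone spans had none in either NuMA-depleted list and 1 in each wild-type list, although those spans were among the richest in NuMA peaks. At 26224207 to 26224607, this 1 region had wild-type folds of 6.73 and 8.49 on 13 and 17 fragments, and its nearest NuMA summit was 7.07 kb away. The histone spans are 0.55 Mb long, and a count of 0 or 1 over that length cannot show a difference between groups at this depth. Extended class I had no H1 peak in any list.

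The H1 peaks of the segment formed 39 regions, and none was called in both NuMA-depleted lists. Of the 39, 14 were called in 1 wild-type list only, 7 in both wild-type lists only, 7 in 1 NuMA-depleted list only, 2 in 1 list of each group, and 9 in both wild-type lists and 1 NuMA-depleted list. Over the rest of chromosome 6, 33 of 387 regions were in both NuMA-depleted lists. In the order above, the other patterns there held 189 (48.8%), 39 (10.1%), 49 (12.7%), 27 (6.98%) and 50 (12.9%) of the 387. Wild-type replicate 1 had 16 of its 20 segment peaks (80%) in wild-type replicate 2, against 114 of 203 (56.2%) in the rest of the chromosome and 54.6% over all chromosomes.

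Of those 16 regions, at least 1 NuMA-depleted list held 9 (56.3%, 95% Wilson interval 33.2% to 76.9%), against 75 of 114 (65.8%) in the rest of the chromosome and 59.8% over all chromosomes. Both NuMA-depleted lists held 0 of the 16, against 25 of 114 in the rest and 23.9% over all chromosomes. Replicate 1 held 7 and replicate 2 held 2, so without replicate 1 the share was 12.5%. It was 36.4% (4 of 11) for peaks with a −log10 q of at least 5 and 37.5% (6 of 16) when summits had to lie within 200 bp. With 16 regions the interval of the share held both the value of the rest and that of all chromosomes.

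**Figure D5:**
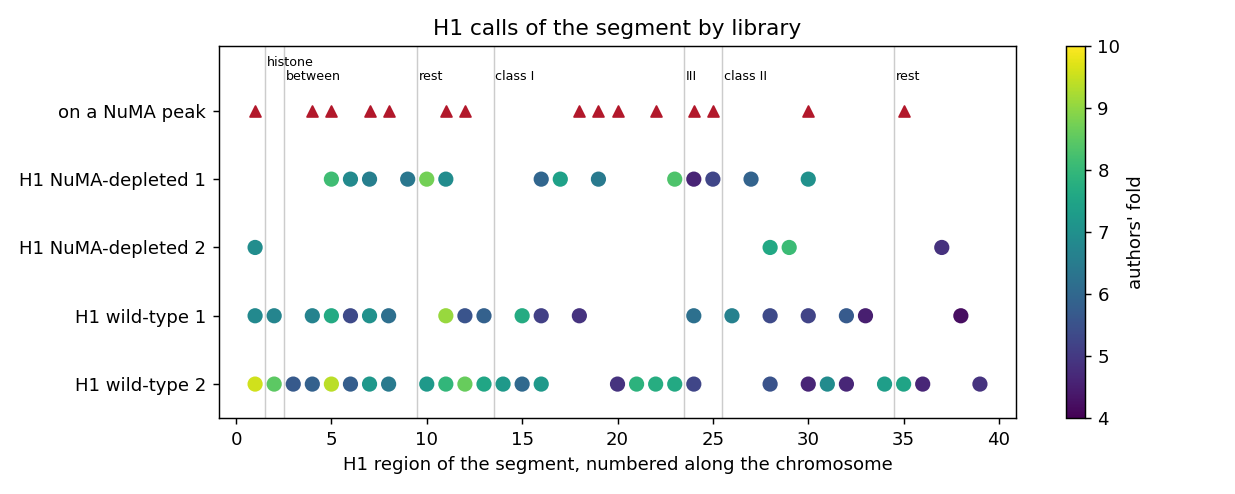
The 39 H1 regions of the segment, numbered along the chromosome (horizontal axis), with a point coloured by the authors' fold in each list that holds the region and a triangle where a NuMA peak of either antibody overlaps it. No column has points in both NuMA-depleted rows, and 15 of the 39 regions carry a triangle.

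The regions kept in a NuMA-depleted list lay in the MHC and in the rest of the segment. The histone spans had only 1 region in both wild-type lists, and it was not kept. Extended class I and the stretch from 33.4 Mb on had no region in both wild-type lists, so none could be kept there. NuMA-depleted replicate 1 held 26659688 to 26660263, with a fold of 8.14 against wild-type folds of 7.63 and 9.39. It held 27156349 to 27156853 (6.85 against 5.36 and 5.77) and 27342679 to 27343158 (6.56 against 7.0 and 7.20), all between the histone spans. It also held 28109491 to 28109883, with 6.90 against 9.07 and 7.94. In the MHC it held 30034717 to 30035209 in class I (5.96 against 5.13 and 7.23), 31697131 to 31698086 in class III (4.59 against 6.19 and 5.26) and 32821340 to 32821960 in class II (7.0 against 5.21 and 4.61). The class III region had the widest peak of both wild-type lists in the segment, 769 and 803 bp. NuMA-depleted replicate 2 held 25992845 to 25993202, with 6.91 against 6.82 and 9.56, and 32634263 to 32634594 in class II, with 7.59 against 5.36 and 5.54. That last region lies inside the 635.3 kb stretch without NuMA peaks, 172.0 kb from the nearest NuMA summit. The widest peaks of the NuMA-depleted lists in the segment were those at 26659695 to 26660263 in replicate 1 (569 bp) and 32634284 to 32634594 in replicate 2 (311 bp). Folds are each list's own values, and no change of H1 signal was read from them.

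The 7 regions that both wild-type lists and no NuMA-depleted list held had wild-type folds of the same order. Besides the histone region they were 26457839 to 26458568 (6.69 and 5.85) and 27440456 to 27440826 (6.16 and 6.45) between the histone spans. Further along lay 28303320 to 28303755 (5.55 and 8.60) and 28351203 to 28351547 (5.84 and 7.55), followed by 29815710 to 29816068 in class I (7.67 and 6.04) and 32908583 to 32908918 in class II (5.69 and 4.65). Their summits carried 9 to 22 fragments, and the part of the lower depth of the NuMA-depleted libraries in their absence was not tested.

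H1 peaks of the segment often lay on NuMA peaks. In NuMA-depleted libraries 7 of 14 (50%) and 1 of 4 (25%) overlapped a NuMA peak of either antibody, and in wild-type libraries 10 of 20 (50%) and 12 of 28 (42.9%). In the rest of chromosome 6 the shares were 37.0% and 38.5% in NuMA-depleted and 27.6% and 20.7% in wild-type libraries. Over all chromosomes they were 36.6% and 29.5% in NuMA-depleted and 31.7% and 24.9% in wild-type libraries. The segment's share was above both in 3 of the 4 libraries, and NuMA-depleted replicate 2 with its 4 peaks was the exception. NuMA peaks cover about 2% of the segment but far less of the rest, 2.17% against 0.114% in the C-terminal list, and the part of this in the overlap was not tested. Between the groups the segment's share was 37.5% ± 17.7 in NuMA-depleted and 46.4% ± 5.05 in wild-type libraries (SD, n = 2 each), a difference of −8.93 percentage points within the spread (exact permutation p = 1). At equal list length, with 2 to 5 peaks per library, it was −42.5 points (exact permutation p = 0.333), and with summits within 200 bp it turned to 4.29 points (exact permutation p = 0.333).

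Of the 39 H1 regions, 15 overlapped a NuMA peak and 10 of these overlapped peaks of both antibodies. Among the 15, 9 were called in both wild-type lists and 6 of those also in a NuMA-depleted list. Among the 24 on no NuMA peak, 7 were called in both wild-type lists and 3 of those also in a NuMA-depleted list. Over all chromosomes at least 1 NuMA-depleted list held 59.8% of regions in both wild-type lists, without a split by NuMA. The counts of the segment are small, and a difference between regions on and off NuMA was not tested. The overlap included the C-terminal peak of highest fold on the chromosome. Only NuMA-depleted replicate 1 had an H1 peak there, at 32145599 to 32146047 with a fold of 5.24 on 12 fragments. Its nearest NuMA summit was 0.596 kb away, so that H1 peak lay off the NuMA summits. The H1 region at 28109491 had its nearest NuMA summit 0.009 kb away and was called with both NuMA antibodies at folds of 7.06 and 5.17. None of the 28 NuMA regions of the histone spans, and none of the 5 highest MHC regions by the lower of the 2 folds, overlapped an H1 peak in any list. The segment had 279 NuMA regions and only 15 H1 regions on a NuMA peak, so most NuMA regions had no H1 peak. The absence of H1 is therefore no trait particular to these sites, and its share over all chromosomes was not computed.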

How the data were processed

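The members, spans and named regions were chosen with earlier results of these data known. Per the submitters' processing notes, Trim Galore, Bowtie2, Picard and MACS2 were used with hg19, with versions and settings not given in the sources used here. For each library the authors deposited 1 peak list, whose peak names state a q limit of 0.001. Each peak had a fold, the authors' ratio of signal to background at the summit, and −log10 p and −log10 q values as deposited. Nothing was renormalized.

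Peaks were assigned by start, shared meant 1 bp of overlap, and coordinates are 1-based hg19. Summit fragments and background were recovered from fold and −log10 p, within 0.01 of a whole number for 99.0% to 100% of the solved peaks, and tested on simulated data. The median peak had 14 to 19 summit fragments for H1, 27 for the C-terminal antibody and 58 for the N-terminal one. Relative depth was taken from the lowest background in a list. H1 groups were compared by exact two-sided permutation tests and a sign-flip permutation test. NuMA densities, overlaps, widths and folds had 1 library each and no test. Named were histone-span regions in 2 or more lists and the 10 of highest fold, the 5 highest with both antibodies and the 3 highest of each antibody alone in the MHC and in the rest, H1 regions in both lists of a group, and the widest peak of each list. Gene counts and promoters came from RefSeq GRCh38.p14. Alternatives changed the q limit, list length, overlap rule, reference region and libraries. Python 3.11.15, numpy 2.4.6, pandas 2.3.3, scipy 1.17.1 and matplotlib 3.10.9 were used.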

Additional observations from a re-analysis of the deposited data

How the results depend on the processing

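Of 90 recomputed values, 7 turned, 10 moved outside their 95% counting interval, and 73 did neither, although several of these also changed in size. The H1 results on density, chromosome share and overlap with NuMA had no such interval. They could only turn or keep their sign, so these counts do not measure how stable they were. The cause was not tested except where fewer peaks or libraries were used by construction. The NuMA density ratio of the segment was 7.38 (C-terminal) and 5.02 (N-terminal) against the rest of the short arm, and 5.28 and 4.01 against all chromosomes. Against all chromosomes the difference in the share of C-terminal peaks with an N-terminal partner turned to −6.94 percentage points, and the N-terminal difference was 13.1. The log2 ratio of median width was then 0.020 (C-terminal) and −0.11 (N-terminal), and that of C-terminal fold 0.42. The log2 ratio of N-terminal fold against the short arm was 0.35. A reciprocal overlap of 50% gave a C-terminal difference of 11.2 points. With H1 lists of equal length the log2 ratio of H1 density, NuMA-depleted over wild-type, was 0.36 and the difference in chromosome share 0.90 points (exact permutation p = 1 for both), and no region of the segment was left in both wild-type lists, so the kept share had no value. The mean log2 H1 density ratio of the segment was 0.20 at equal length (exact sign-flip permutation p = 0.5), 0.56 against the short arm (exact sign-flip permutation p = 0.125) and 0.63 against all chromosomes (exact sign-flip permutation p = 0.25). The kept share was 36.4% at a −log10 q of at least 5, 37.5% with summits within 200 bp and 46.2% with a reciprocal overlap of 50%. With summits within 200 bp the NuMA-depleted minus wild-type difference in H1 peaks on NuMA was 4.29 points (exact permutation p = 0.333), whereas it was −42.5 points at equal length (exact permutation p = 0.333) and −15.5 points at a −log10 q of at least 5 (exact permutation p = 0.667). Leaving out 1 library at a time gave log2 density ratios of −2.58 (without NuMA-depleted replicate 1) to −0.78 (without NuMA-depleted replicate 2), chromosome-share differences of −3.80 to 0.34 points, kept shares of 12.5% to 45% and on-NuMA differences of −21.4 to 3.57 points. The replicate numbers are not stated to pair the libraries. Mean differences of the libraries paired by number gave −1.66 for log2 density (exact sign-flip permutation p = 0.5, the smallest that 2 pairs can give). They gave −1.73 points for chromosome share and −8.93 points for H1 on NuMA (exact sign-flip permutation p = 1 for both). Segment H1 summits carried 8 to 25 fragments, and the NuMA-depleted libraries were the shallower ones by recovered depth. The 2 NuMA-depleted libraries were alike in recovered depth (lowest background 0.00212 fragments per bp in each), with 2616 and 1480 peaks over all chromosomes. The part of depth in which H1 peaks were called was not tested.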
